A study of Arabidopsis thaliana with 90 samples.

Results

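The seedlings described here are PHYB-CFP/abcde plants kept at 17 °C and irradiated with red light (R) for 24 h. Their 3 libraries, of 90 in the whole series, were chosen by their labelled line, temperature and light, and were set against the 3 dark libraries of the same line and temperature. The line is in the Landsberg erecta ecotype of Arabidopsis and carries mutations in all the phytochrome genes (phyA-201 phyB-1 phyC-1 phyD-1 phyE-1, abbreviated abcde). Its only functional phytochrome is PHYB fused to the fluorescent protein CFP, expressed from the PHYB promoter, in a homozygous line with a single copy of the transgene, so all values come from 1 transgenic line. Polyadenylated RNA of whole 4-day-old etiolated seedlings was sequenced, and R was given at 50 µmol m−2 s−1. The groups used beside it were PHYB-CFP/abcde at 17 °C after 1 h R, PHYB-CFP/abcde at 27 °C after 24 h R and in darkness, the line PHYD-YFP/abcde at 17 °C, irradiated for 24 h and dark (PHYD-YFP from the constitutive 35S promoter in the same mutant), and aBcde at 17 °C after 24 h R and in darkness (phyA-201 phyC-1 phyD-1 phyE-1, with native phyB as sole functional phytochrome), each with 3 libraries. Whether the seedlings irradiated for 24 h were a day older than the dark controls is not given in the sources used here, so age and light cannot be told apart. The labels also do not state that replicates came from separate cultures, so p-values rest on a spread between libraries that may be technical. That spread was estimated over all 90 libraries of the series, also those of groups not used here. In whole seedlings, fewer cells of a type and less RNA per cell cannot be told apart.

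Phytochromes are photoreceptors that red light converts to an active form and that far-red light and, for phyB, warmth return to the inactive form. Active phyB enters the nucleus and binds the PHYTOCHROME-INTERACTING FACTORS (PIFs), basic helix-loop-helix (bHLH) transcription factors that accumulate in darkness, and it also restrains the COP1/SPA ubiquitin ligase, which removes light-signaling factors such as HY5. An etiolated seedling that receives R therefore stops the growth program of darkness and builds photosynthetic chloroplasts.

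Read totals over genes ranged from 16264207 to 18449559 in the 24 h R libraries, from 17423195 to 18684743 after 1 h R and from 17230283 to 19748267 in darkness. Expression is given as CPM, a gene's count scaled to a common library size, library sizes being set by the TMM method, so CPM compares 1 gene between libraries and not genes of different length with each other. On log2 CPM, the 24 h R libraries differed from one another by a root mean square of 0.597 to 0.627 and the dark libraries by 0.529 to 0.548, while a 24 h R and a dark library differed by 0.857 to 0.894. Of 20695 genes tested with edgeR, 1819 (8.79%) were differentially expressed genes (DEGs), defined by a change of 2-fold or more and an adjusted p below 0.05. Of these, 1158 (5.60% of tested genes) were higher after 24 h R and 661 (3.19%) were lower. Without the fold threshold the split was even, with 2660 genes higher and 2664 lower, and with limma on quantile-normalized values 1078 were higher and 901 lower. The 3 irradiated and the 3 dark libraries did not overlap for 1771 of the DEGs and for 44.5% of all tested genes. The median log2 fold change of all tested genes was 0.0088, which the TMM scaling itself sets near 0, so changes are relative to most genes.

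The transcripts of the transgene and of the mutated endogenous phyB-1 gene are counted together as PHYB. PHYB had 315, 337 and 310 CPM after 24 h R, against 466, 452 and 462 CPM in darkness, a log2 difference of −0.52 ± 0.11 (SE) with an adjusted p of 0.000164, which is under the 2-fold threshold. All 6 values lay above those of the lines without PHYB-CFP, with 81.7 to 96.5 CPM after 24 h R and 126 to 138 CPM in darkness in aBcde, and 62.0 to 70.8 CPM after 24 h R and 82.7 to 85.2 CPM in darkness in PHYD-YFP/abcde, as the labels require. None of the 5 phytochrome genes was a DEG. The gene closest to the threshold was PHYA, with 421, 429 and 423 CPM after 24 h R, against 844, 801 and 846 CPM in darkness (log2 fold change −0.97 ± 0.14, adjusted p = 1.27e-07). PHYC had 32.1 to 35.1 CPM after 24 h R and 36.4 to 43.1 CPM in darkness, and PHYE had 23.4 to 27.9 CPM after 24 h R and 18.8 to 20.9 CPM in darkness. PHYD had 15.5, 15.6 and 12.9 CPM after 24 h R, against 18.9, 44.2 and 16.5 CPM in darkness, so dark replicate 2 stood apart. Replicate 1 of the 1 h R libraries also had more PHYD reads (39.2 CPM) than replicates 2 and 3 (18.8 and 17.5 CPM). PHYD-YFP/abcde had 3852 to 5140 CPM of PHYD in the 6 libraries named above. Replicate 1 also stood apart in aBcde in darkness (107 CPM, with 17.3 and 16.6 CPM in replicates 2 and 3), in PHYB-CFP/abcde at 27 °C after 24 h R (61.7 CPM, with 17.35 and 14.0 CPM) and in PHYB-CFP/abcde at 27 °C in darkness (171 CPM, with 21.1 and 20.1 CPM). Whether reads of a PHYD-YFP line are present in these 5 libraries was not tested. Without dark replicate 2 there were 1607 DEGs, and without all 5 libraries, an alternative chosen after seeing the data, there were 1603, of which 1463 were among the 1819.

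Genes of the light-harvesting antenna, the proteins that bind chlorophyll and pass light energy to the photosystems, were higher after 24 h R in 20 of 21 cases, beside 5.60% of all tested genes. Their median log2 fold change was 2.07. CAB2, an antenna protein of photosystem II, had 2124, 1653 and 2480 CPM after 24 h R, against 11.8, 8.28 and 13 CPM in darkness (log2 fold change 7.56 ± 0.48, adjusted p = 6.12e-20). LHB1B1, of the same family, had 3420, 3012 and 4302 CPM after 24 h R, against 23.8, 11.9 and 21.3 CPM in darkness (7.55 ± 0.63, adjusted p = 2.71e-15). For both genes every irradiated library was far above every dark one. Other family members started from a higher dark level. LHCB3 had 2411, 2062 and 2315 CPM after 24 h R, against 437, 378 and 420 CPM in darkness (2.46 ± 0.38, adjusted p = 4.38e-07), and CAB1 had 9817, 8792 and 13124 CPM after 24 h R, against 2873, 2315 and 2386 CPM in darkness (2.07 ± 0.40, adjusted p = 4.7e-05). LHCA1, an antenna protein of photosystem I, had 1984, 1558 and 2282 CPM after 24 h R, against 174, 153 and 151 CPM in darkness (3.61 ± 0.34, adjusted p = 2.45e-13). The exception was LHCB4.3, with 23.2, 18.7 and 16.6 CPM after 24 h R and 10.3, 13.1 and 13.4 CPM in darkness (0.67 ± 0.24, adjusted p = 0.03), whose change was under 2-fold. For all 21 genes the irradiated and dark libraries did not overlap, beside 44.5% of all tested genes. Together the 21 genes had 45260, 39430.1 and 52737 CPM after 24 h R, against 9686, 8250 and 8909 CPM in darkness. CAB1, CAB2 and CAB3, and likewise LHB1B1 and LHB1B2, have near-identical sequences, and how reads that fit several of them were counted is not given in the sources used here, so their single values are less certain than their sum.

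The G-box, CACGTG, is the sequence that HY5 and the PIFs are best known to bind. It was searched on both strands, on which it reads the same, in the 250 bases before each annotated start in the RefSeq annotation of TAIR10.1. It was found in 5 of the 21 antenna genes (23.8%) and in 7.43% of the 20662 tested genes with such a window, 9.0% of genes higher after 24 h R and 12.7% of genes lower. All 5 antenna genes with the G-box were higher after 24 h R. As 20 of the 21 antenna genes were higher, most of them without the motif, this list cannot relate the motif to the call. The windows of 3 of them are shown, 5′ to 3′ on the gene's strand, as examples of the motif, in capitals, in genes that rose together. LHCB2.3 lies on the plus strand (chr3:10255656-10255905), LHCA4 on the minus strand (chr3:17495034-17495283) and LHCB4.1 on the plus strand (chr5:208616-208865).
LHCB2.3: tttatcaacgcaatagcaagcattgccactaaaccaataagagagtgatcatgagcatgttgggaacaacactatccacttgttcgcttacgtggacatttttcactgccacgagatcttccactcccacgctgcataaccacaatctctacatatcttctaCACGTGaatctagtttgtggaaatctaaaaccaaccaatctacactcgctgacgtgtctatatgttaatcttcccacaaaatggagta
LHCA4: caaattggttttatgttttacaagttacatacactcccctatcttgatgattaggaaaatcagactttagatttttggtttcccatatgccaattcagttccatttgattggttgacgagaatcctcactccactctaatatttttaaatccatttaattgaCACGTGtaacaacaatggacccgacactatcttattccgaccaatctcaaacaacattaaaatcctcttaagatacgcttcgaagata
LHCB4.1: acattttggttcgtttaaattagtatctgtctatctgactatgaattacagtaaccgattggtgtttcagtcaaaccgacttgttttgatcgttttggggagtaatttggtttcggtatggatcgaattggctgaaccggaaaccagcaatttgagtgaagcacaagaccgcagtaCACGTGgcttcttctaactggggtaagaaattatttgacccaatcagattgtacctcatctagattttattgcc
In LHCB2.3 and LHCA4 the motif begins 88 bases before the start, and in LHCB4.1 it begins 74 bases before it. In the other antenna genes with a G-box it begins 124 bases (LHCB6) and 19 bases (AT1G76570) before the start, so the position varies. LHCB2.3 had 333, 274 and 351 CPM after 24 h R, against 52.4, 41.3 and 46.7 CPM in darkness (log2 fold change 2.77 ± 0.40, adjusted p = 1.38e-07). A match of letters is a description and does not show a bound site.

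In other photosynthesis lists part of the genes were higher, beside 5.60% higher and 3.19% lower among all tested genes. Of 25 nuclear genes for photosystem subunits and electron transport, 18 were higher and none was lower, with a median log2 fold change of 1.19. For each of the 25 the irradiated and dark libraries did not overlap, beside 44.5% of all tested genes. PSBQ-2, of the oxygen-evolving complex, had 1118, 885 and 1058 CPM after 24 h R, against 137, 120 and 153 CPM in darkness (2.90 ± 0.33, adjusted p = 8.53e-11). PSAN, a photosystem I subunit, had 1096, 879 and 1017 CPM after 24 h R, against 200, 202 and 213 CPM in darkness (2.28 ± 0.17, adjusted p = 7.65e-17). Of 20 genes for the Rubisco small subunits and the Calvin cycle, 10 were higher and none was lower, with a median of 1.06. Among these, RCA, the activase of Rubisco, had 3455, 2948 and 3302 CPM after 24 h R, against 885, 873 and 903 CPM in darkness (1.87 ± 0.27, adjusted p = 1.68e-07). CP12-2, which binds and regulates Calvin cycle enzymes, had 77.5, 71.9 and 84.3 CPM after 24 h R, against 17.5, 17.2 and 16.9 CPM in darkness (2.18 ± 0.29, adjusted p = 1.56e-08). Photorespiration, which recovers the product of the oxygenase reaction of Rubisco, had 6 of 13 genes higher and none lower (median 0.96). An example is GGT1, a glyoxylate aminotransferase, with 1561, 1261 and 1545 CPM after 24 h R, against 364, 312 and 387 CPM in darkness (2.04 ± 0.28, adjusted p = 2.88e-08).

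Chlorophyll synthesis changed at selected steps. Of 24 genes, 9 were higher and 1 was lower, beside 5.60% and 3.19% of all tested genes. The other 14 passed neither way, and the median was 0.35. HEMA1, the first committed enzyme of tetrapyrrole synthesis, had 376, 306 and 379 CPM after 24 h R, against 148, 131 and 156 CPM in darkness (1.29 ± 0.19, adjusted p = 1.42e-07). GUN5, the porphyrin-binding subunit of magnesium chelatase, had 1268, 1252 and 1211 CPM after 24 h R, against 490, 431 and 482 CPM in darkness (1.41 ± 0.27, adjusted p = 3.88e-05). CH1, which makes chlorophyll b, had 242, 207 and 227 CPM after 24 h R, against 78.9, 72.5 and 75.6 CPM in darkness (1.57 ± 0.15, adjusted p = 4.8e-13). Each of these 3 genes had a narrow range within a group and a wide gap between the groups. PORA, the protochlorophyllide oxidoreductase of etiolated seedlings and the marker of etiolation used here, was the gene that fell, with 665, 673 and 552 CPM after 24 h R, against 2369, 2433 and 2620 CPM in darkness (−1.97 ± 0.43, adjusted p = 0.000306). High PORA in the dark libraries is what etiolated seedlings should show. PORB had 1331 to 1376 CPM after 24 h R and 2116 to 2330 CPM in darkness (adjusted p = 0.0592), while PORC was higher, with 108, 93.2 and 87.6 CPM after 24 h R, against 30.3, 34.0 and 33.8 CPM in darkness (1.56 ± 0.23, adjusted p = 3.25e-07). In carotenoid synthesis 4 of 13 genes were higher, beside 5.60% of all tested genes, and none was lower. These included PSY, the phytoene synthase that opens the pathway, with 241, 212 and 217 CPM after 24 h R, against 69.2, 67.9 and 77.5 CPM in darkness (1.64 ± 0.26, adjusted p = 7.26e-07), and ABA1, the zeaxanthin epoxidase.

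Nitrate assimilation, which depends on reducing power from photosynthesis, was also higher, with 6 of 8 genes (median 1.34), beside 5.60% of all tested genes. NIA1, a nitrate reductase, had 476, 436 and 477 CPM after 24 h R, against 87.8, 84.1 and 88.1 CPM in darkness (2.42 ± 0.36, adjusted p = 3.14e-07), and NIR1, the nitrite reductase, had 129, 111 and 115 CPM after 24 h R, against 48.0, 46.1 and 53.7 CPM in darkness (1.27 ± 0.16, adjusted p = 6.45e-09). The nitrate transporter gene NRT2:1 was lower, at 0.0588 to 0.164 CPM after 24 h R and 0.318 to 1.74 CPM in darkness, and it no longer passed without any of 24 h R replicates 1 to 3 or dark replicates 1 and 2 (−2.28 to −3.77). In thiamine synthesis both THIC and THI1, which make the rings of the vitamin, rose, and the other 3 genes did not pass. THIC had 232, 211 and 216 CPM after 24 h R, against 73.2, 73.8 and 71.7 CPM in darkness (1.59 ± 0.11, adjusted p = 4.72e-19). THI1 had 502, 427 and 405 CPM after 24 h R, against 70.4, 58.3 and 57.3 CPM in darkness (2.84 ± 0.24, adjusted p = 2.31e-15). Of 10 transcription and plastid sigma factors of chloroplast development, CGA1, a GATA factor, and SIGE, a plastid sigma factor, were higher. CGA1 had 9.18, 12.2 and 17.8 CPM after 24 h R, against 1.89, 1.74 and 1.59 CPM in darkness (2.90 ± 0.37, adjusted p = 5.44e-09). GPRI1 (GLK1) and GLK2, activators of photosynthesis genes, had 31.6 to 39.8 and 37.6 to 56.0 CPM after 24 h R, against 32.0 to 36.0 and 41.0 to 51.3 CPM in darkness, and did not pass. Of 9 flavonoid and anthocyanin genes tested (16 in the list), PAP1 and 4CL3 were called higher at under 3 CPM. PAP1 lost its call without replicate 1 of the 24 h R libraries (3.31) or dark replicate 1 (3.47), and 4CL3, with a log2 fold change of 1.43 to 1.93, without any of 24 h R replicates 1 to 3 or dark replicates 1 and 2.

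**Figure D1:**
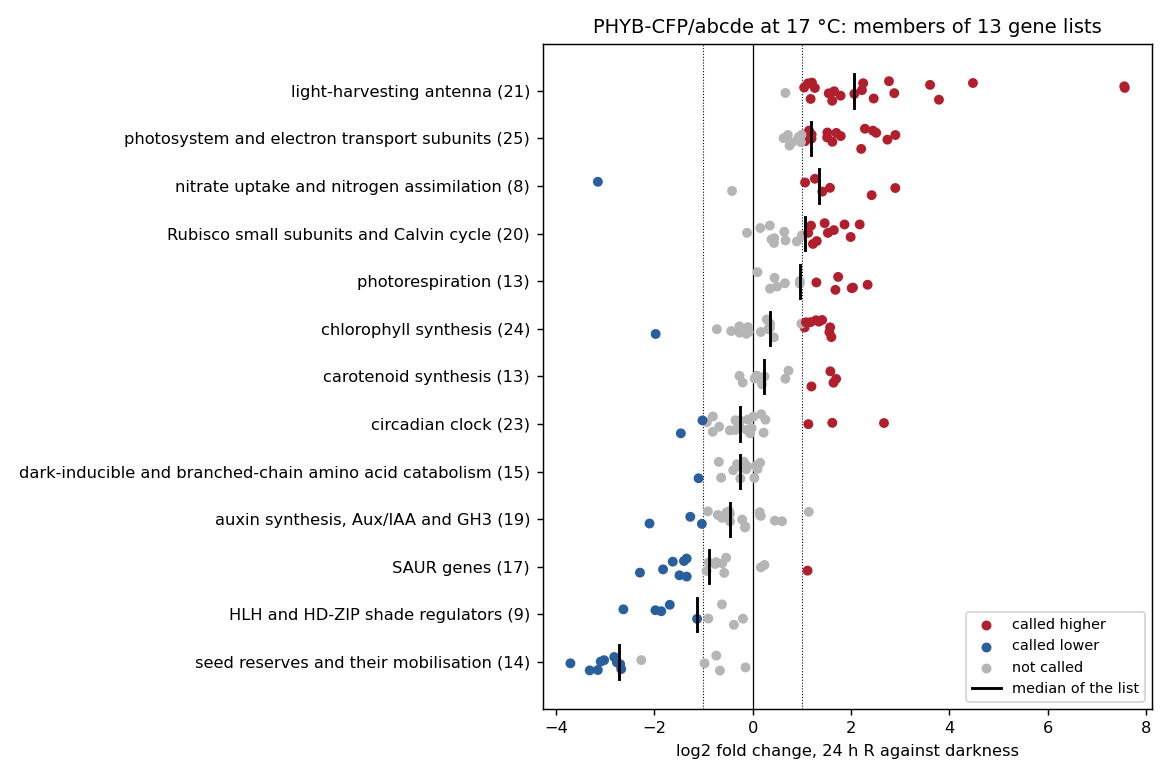
Log2 fold change of each tested gene of 13 lists after 24 h R against darkness in PHYB-CFP/abcde at 17 °C. Each point is a gene, colored by its call, vertical bars are list medians, dotted lines mark a 2-fold change and the number of genes is in parentheses. Antenna genes lie to the right with 20 of 21 called higher, and seed reserve genes to the left with 9 of 14 called lower.

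Among the regulators of light signaling, the direction differed from gene to gene, beside 5.60% of all tested genes higher and 3.19% lower. HY5, a bZIP activator of photomorphogenesis, was lower, with 21.6, 18.3 and 22.1 CPM after 24 h R, against 89.6, 79.3 and 90.5 CPM in darkness (−2.07 ± 0.23, adjusted p = 3.44e-11). SPA1, a partner of COP1, was higher, with 59.7, 62.4 and 54.6 CPM after 24 h R, against 26.9, 25.6 and 31.6 CPM in darkness (1.07 ± 0.14, adjusted p = 7.53e-09). The other 7 genes of this list, COP1 and HYH among them, did not pass. In the double B-box family, whose members act with or against HY5, bbx23 fell, with 6.46, 4.11 and 3.01 CPM after 24 h R, against 65.8, 66.6 and 79.8 CPM in darkness (−3.97 ± 0.44, adjusted p = 7.04e-11). STH (BBX25) and LZF1 (BBX22) rose. STH had 18.1, 15.3 and 17.3 CPM after 24 h R, against 1.84, 0.984 and 1.59 CPM in darkness (3.51 ± 0.37, adjusted p = 1.23e-11). In the single B-box family, BBX28 had 20.5, 24.1 and 21 CPM after 24 h R, against 123, 113 and 112 CPM in darkness (−2.41 ± 0.17, adjusted p = 2.99e-18). BBX29 was lower too, and BBX31 and BBX32 were called higher with 23 counts each over the 3 irradiated libraries and 1 count each in darkness. Their calls were lost without dark replicate 1 (BBX31, 3.69) or without replicate 1 of the 24 h R libraries (BBX32, 2.28). Of 6 antenna relatives that protect against excess light, ELIP1 and ELIP2 were lower. ELIP2 had 13.4, 11 and 16.4 CPM after 24 h R, against 57.3, 67.0 and 76.0 CPM in darkness (−2.29 ± 0.42, adjusted p = 2.14e-05).

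Of 23 clock genes, 3 were higher (ELF4, FKF1 and PRR5) and 2 were lower (CCA1 and AT5G06980), and the median was −0.26. Beside them, 5.60% of all tested genes were higher and 3.19% were lower. ELF4, of the evening complex, had 8.82, 9.70 and 11.4 CPM after 24 h R, against 1.69, 1.56 and 1.43 CPM in darkness (2.67 ± 0.25, adjusted p = 1.79e-13). CCA1, a MYB repressor of the morning, had 10.3, 7.64 and 8.09 CPM after 24 h R, against 27.0, 19.6 and 25 CPM in darkness (−1.46 ± 0.22, adjusted p = 3.03e-07). Time of day at harvest is not given in the sources used here, so light and time cannot be told apart for these genes. Without dark replicate 1 PRR5 had a log2 fold change of 0.99 and AT5G06980 one of −0.94, both under 2-fold, and AT5G06980 was at −0.95 without 24 h R replicate 3.

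The PIF genes themselves did not move together. PIF4, PIF7 and UNE10 (PIF8) were higher, PIL2 (PIF6) was lower, and PIF3, PIL5 (PIF1) and PIL6 (PIF5) did not pass. PIF4 had 55.5, 46.0 and 60.8 CPM after 24 h R, against 19.2, 15.7 and 21.8 CPM in darkness (1.51 ± 0.22, adjusted p = 2.17e-07). PIF7 had 4.53, 4.94 and 4.59 CPM after 24 h R, against 0.358, 0.752 and 0.477 CPM in darkness (3.14 ± 0.54, adjusted p = 5.93e-06). PIF3 was level, with 87.6, 88.8 and 82.5 CPM after 24 h R and 87.3, 96.3 and 95.0 CPM in darkness (−0.11 ± 0.16, adjusted p = 0.686). By contrast, the HLH and HD-ZIP genes that PIFs are known to activate fell or did not pass. Of these 9 genes 5 were lower, beside 3.19% of all tested genes, none was higher, and the median was −1.13. The irradiated libraries lay below the dark ones for all 9, while 44.5% of all tested genes had no overlap, in either direction. PIL1, a bHLH protein that opposes the PIFs, had 13.6, 10.2 and 18.1 CPM after 24 h R, against 86.2, 88.3 and 85.0 CPM in darkness (−2.63 ± 0.24, adjusted p = 1.69e-13). HFR1, a HLH inhibitor of PIFs, had 55.3, 48.8 and 50.0 CPM after 24 h R, against 169, 165 and 161 CPM in darkness (−1.69 ± 0.14, adjusted p = 5.08e-16). HB-2 (ATHB2), a homeodomain factor of shade growth, had 35.6, 37.2 and 47.3 CPM after 24 h R, against 163, 154 and 156 CPM in darkness (−1.98 ± 0.21, adjusted p = 7.89e-12). PAR1 and PAR2 were also lower. The 4 genes that did not pass were HAT1, HAT2, HAT3 and HB4, all HD-ZIP genes.

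Growth-related genes were lower in part. Of 19 auxin genes tested, 3 were lower, beside 3.19% of all tested genes, and none was higher (median −0.46). IAA19, an Aux/IAA protein, had 22.2, 24.8 and 19.2 CPM after 24 h R, against 99.5, 106 and 78.1 CPM in darkness (−2.10 ± 0.28, adjusted p = 2.23e-08). ARF18, an auxin response factor, was also lower, and GH3.3 was at −1.03, with values between −0.96 and −0.99 without 24 h R replicate 1 or 3 or dark replicate 2. The SAUR genes respond early to auxin, and their proteins promote cell expansion. They were lower in 7 of 17 cases and higher in 1 (median −0.89), beside 3.19% and 5.60% of all tested genes. SAUR24 had 9.54, 7.87 and 8.20 CPM after 24 h R, against 26.0, 25.8 and 20.1 CPM in darkness (−1.49 ± 0.32, adjusted p = 0.000283). AT1G29500 had 4.35, 5.88 and 3.28 CPM after 24 h R, against 15.8, 12.4 and 13.3 CPM in darkness (−1.62 ± 0.34, adjusted p = 0.000131), and AT5G18030 had 3.38, 5.94 and 5.36 CPM after 24 h R, against 15.1, 12.1 and 10.02 CPM in darkness (−1.34 ± 0.36, adjusted p = 0.00349). The higher SAUR gene, AT4G38840, had 9.40 to 12.3 CPM after 24 h R and 3.71 to 6.85 CPM in darkness, and it was under 2-fold without dark replicate 3 (0.93). Summed over the 17 genes, SAUR transcripts had 142, 159 and 127 CPM after 24 h R, against 245, 230 and 197 CPM in darkness. The genes of the SAUR19 to SAUR24 cluster are near-identical copies, so reads may be shared between them.

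The PBE-box, CATGTG, is a variant of the G-box that PIFs are also known to bind. It was searched on both strands (its reverse is CACATG), it differs from the G-box in 1 letter and can overlap it only in part, and it was found in the 250 bases before the start of 12 of the 17 SAUR genes (70.6%), beside 11.3% of all windows, 12.5% of those of genes higher after 24 h R and 13.9% of those of genes lower. Within the SAUR list it did not go with the call: 3 of the 7 lower genes held it, and so did 8 of the 9 genes without a call and the 1 higher gene. The windows of AT1G29500 (chr1:10320761-10321010, plus strand), AT5G18030 (chr5:5968102-5968351, plus strand) and SAUR22 (chr5:5975088-5975337, minus strand) are shown with the motif in capitals, the first pair for genes that fell and SAUR22 for a close copy that did not pass.
AT1G29500: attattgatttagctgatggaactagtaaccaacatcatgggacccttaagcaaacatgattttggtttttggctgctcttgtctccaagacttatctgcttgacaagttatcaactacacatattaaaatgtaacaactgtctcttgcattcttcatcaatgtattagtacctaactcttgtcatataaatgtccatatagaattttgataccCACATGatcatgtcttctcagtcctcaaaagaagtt
AT5G18030: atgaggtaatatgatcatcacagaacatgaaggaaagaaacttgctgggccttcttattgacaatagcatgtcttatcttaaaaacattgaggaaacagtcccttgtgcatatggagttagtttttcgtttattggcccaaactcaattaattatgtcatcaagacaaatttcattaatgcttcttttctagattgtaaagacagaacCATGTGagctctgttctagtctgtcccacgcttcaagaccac
SAUR22: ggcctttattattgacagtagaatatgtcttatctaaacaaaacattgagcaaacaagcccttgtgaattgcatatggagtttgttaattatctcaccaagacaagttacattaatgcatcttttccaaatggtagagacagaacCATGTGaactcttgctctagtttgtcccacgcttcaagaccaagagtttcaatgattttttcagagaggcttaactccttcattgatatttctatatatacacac
The motif begins 36, 42 and 105 bases before the start in these 3 genes. SAUR22 had 7.91, 12.2 and 6.61 CPM after 24 h R and 18.1, 17.7 and 13.9 CPM in darkness (−0.89 ± 0.32, adjusted p = 0.0303), so its libraries did not overlap although its change was under 2-fold. AT5G18030 and SAUR22 lie in the same gene cluster, so they are not independent cases. All SAUR genes with the motif but AT4G38840 lie in this cluster or in that of AT1G29420 to AT1G29510 on chromosome 1. The share of 70.6% thus rests largely on neighboring genes and not on independent cases.

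Of 21 cell wall loosening genes, 3 were higher and 2 were lower, beside 5.60% and 3.19% of all tested genes, and 16 were not called. XTH15, a xyloglucan endotransglucosylase/hydrolase, had 492, 418 and 419 CPM after 24 h R, against 2215, 2259 and 2232 CPM in darkness (−2.34 ± 0.26, adjusted p = 9.89e-11), and XTH31 had 59.2, 52.3 and 53.2 CPM after 24 h R, against 143, 141 and 145 CPM in darkness (−1.38 ± 0.21, adjusted p = 3.14e-07). XTH9 and TCH4, of the same enzyme family, rose (1.54 and 1.22), and XTH17 was called higher at 2.42 to 4.17 CPM after 24 h R and 0.212 to 1.02 CPM in darkness, with the call lost without 24 h R replicate 2 (1.82) or dark replicate 3 (1.68). In hormone synthesis, single genes fell, beside 3.19% of all tested genes, so the counts do not describe the lists. GA3OX1, which makes active gibberellin, had 13.3, 14.6 and 11.8 CPM after 24 h R, against 44.2, 40.9 and 37.8 CPM in darkness (−1.63 ± 0.23, adjusted p = 7.84e-08), as the only one of 17 gibberellin genes. ACS5, an ethylene synthesis enzyme, had 2.96, 5.88 and 1.2 CPM after 24 h R, against 20.2, 21.8 and 24.0 CPM in darkness (−2.72 ± 0.40, adjusted p = 1.56e-07), as the only one of 5 ethylene genes tested. In the cytokinin list of 12 genes tested, CKX5, which degrades cytokinin, was lower (−1.57) and RR16, a response regulator, was higher (3.34). CPD was lower as 1 of 8 brassinosteroid genes, and it was at −0.99 without dark replicate 1.

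Genes of seed reserves (storage proteins and oleosins) and of their mobilisation were lower in 9 of 14 cases, beside 3.19% of all tested genes, with a median log2 fold change of −2.73. CRU3, a cruciferin storage protein, had 18.7, 46.9 and 10 CPM after 24 h R, against 188, 172 and 172 CPM in darkness (−2.81 ± 0.96, adjusted p = 0.0226). OLEO1, an oleosin of oil bodies, had 1.33, 2.94 and 0.820 CPM after 24 h R, against 9.0, 16.4 and 15.9 CPM in darkness (−3.02 ± 0.78, adjusted p = 0.00228). The groups did not overlap for 12 of the 14 genes, beside 44.5% of all tested genes, but the spread between libraries was large: after 1 h R, replicate 1 had 26.0 CPM of CRU3 and replicates 2 and 3 had 293 and 219 CPM. Without replicate 3 of the 24 h R libraries only 3 of the 14 genes were called lower. Of 15 dark-inducible and amino acid catabolism genes, which are induced when sugar is short, only DIN2 was a DEG, with 467, 506 and 510 CPM after 24 h R, against 1077, 1117 and 984 CPM in darkness (−1.10 ± 0.29, adjusted p = 0.00257). The median of the 15 was −0.25.

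Markers of cell types were measured to see what the whole seedlings held. For comparison, 5.60% of all tested genes were higher and 3.19% were lower. Of 9 markers of the stomatal lineage and guard cells, SPCH, FMA (FAMA) and EPF1 were higher (1 of 9 without the 5 libraries that stood apart in PHYD), none was lower, and their sum was 273 to 297 CPM after 24 h R and 268 to 307 CPM in darkness. FMA, which directs guard cell fate, had 9.06, 5.70 and 10.5 CPM after 24 h R, against 4.09, 2.08 and 3.87 CPM in darkness (1.33 ± 0.28, adjusted p = 0.000178), and it was the only one called without 24 h R replicate 3 or without dark replicate 2, when SPCH was at 0.95 and 0.91. EPF1 lost its call without any of the 6 libraries (1.41 to 1.83). Of 9 root endodermis and root hair markers none was a DEG, the median was −0.31, and their sum was 216 to 274 CPM after 24 h R and 335 to 374 CPM in darkness. CASP1, of the Casparian strip, had 40.7, 52.9 and 42.8 CPM after 24 h R, against 88.8, 97.6 and 82.2 CPM in darkness (−0.98 ± 0.25, adjusted p = 0.00207). No marker of either list was at 0 in all libraries. The root sum was thus lower after 24 h R, and its part in the other results was not tested. Of 14 genes of DNA replication and cell division 1, CYCB1;1, was higher (2.36), near the 5.60% of all tested genes. Without those 5 libraries 3 were higher, and the median in the main fit was 0.75. Of 10 heat shock genes 2 were lower, ATHSP22.0 (−2.92) and HSP90.1 (−1.48), and the second call was lost without 24 h R replicate 1 or 3 or dark replicate 2 or 3 (−1.12 to −1.43).

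Across all genes, those with the smallest p were, after CAB2, THIC and ABA1, the aldolase gene FBA5 and AT5G02160 among the higher genes, and CYP96A5, BBX28, AT5G02540, HFR1 and ENODL8 among the lower ones. ABA1 had 133, 124 and 124 CPM after 24 h R, against 41.4, 44.6 and 41.4 CPM in darkness (1.58 ± 0.11, adjusted p = 3.41e-18). FBA5 had 92.3, 82.9 and 118 CPM after 24 h R, against 0.358, 0.405 and 1.17 CPM in darkness (7.22 ± 0.52, adjusted p = 3.7e-17). CYP96A5, a cytochrome P450, had 1.39, 1.82 and 0.984 CPM after 24 h R, against 27.8, 32.2 and 25.7 CPM in darkness (−4.35 ± 0.29, adjusted p = 4.72e-19). Among genes with a mean of at least 5 CPM, those with the largest increases included some with few or no reads in darkness. AOC2, an allene oxide cyclase of jasmonate synthesis with close copies in the genome, had 601 counts over the 3 irradiated libraries and 0 in the 3 dark libraries, which is at least 215-fold higher against a floor of 3 counts over the group. AT1G70820 had 605 counts after 24 h R and 3 in darkness, 217-fold higher with a 95% counting interval of 73.7 to 1053 (exact, counting error only). AT1G10657 had 17.5, 14.0 and 17.5 CPM after 24 h R, against 0, 0.231 and 0 CPM in darkness. Among genes with a mean of at least 5 CPM over the 6 libraries and no overlap, the largest falls beside CYP96A5 were those of M17, MYB10, bbx23 and AT2G34315. MYB10, a MYB transcription factor, had 3.38, 3.76 and 2.51 CPM after 24 h R, against 46.7, 51.8 and 55.8 CPM in darkness (−4.00 ± 0.45, adjusted p = 1.29e-10).

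After 1 h R, far fewer genes differed from darkness. Of 20695 genes 49 (0.237%) were higher and 26 (0.126%) were lower, and the 1 h R libraries differed from one another by a root mean square of 0.666 to 0.757 on log2 CPM, against 0.623 to 0.653 between a 1 h R and a dark library. Both irradiated groups were set against the same dark libraries, so their values are given side by side. No antenna, photosystem, Calvin cycle or chlorophyll gene of the lists was a DEG after 1 h, and CAB2 had 11.8, 8.28 and 13 CPM in darkness, 9.49, 10.9 and 7.86 CPM after 1 h R and 2124, 1653 and 2480 CPM after 24 h R. PIL1 and IAA29 were low at 1 h and less so at 24 h. PIL1 had 86.2, 88.3 and 85.0 CPM in darkness, 7.92, 5.71 and 5.07 CPM after 1 h R and 13.6, 10.2 and 18.1 CPM after 24 h R. IAA29 had 43.7, 37.8 and 39.7 CPM in darkness, 4.39, 6.0 and 3.95 CPM after 1 h R and 19.5, 19.9 and 25 CPM after 24 h R, and its log2 difference from darkness was −3.08 ± 0.23 at 1 h and −0.91 ± 0.20 at 24 h. STO (BBX24) was high at 1 h only, with 107, 104 and 123 CPM in darkness, 361, 319 and 300 CPM after 1 h R and 128, 109 and 122 CPM after 24 h R. HY5 had 89.6, 79.3 and 90.5 CPM in darkness, 159, 139 and 199 CPM after 1 h R and 21.6, 18.3 and 22.1 CPM after 24 h R. ELIP2 had the same order, with 155, 106 and 234 CPM after 1 h R. HFR1 and HB-2 had intermediate values at 1 h, 97.3, 85.9 and 103 CPM for HFR1 and 73.2, 70.2 and 76.3 CPM for HB-2, between those in darkness and after 24 h R. In the direct test of 24 h R against 1 h R, 1033 genes (4.99%) were higher and 736 (3.56%) were lower, with CAB2, THIC, FBA5 and LHB1B1 leading the first and HY5, CYP96A5, STO and CSLA02 the second. Among the other genes with the smallest p at 1 h, the MYB-like factors RVE1 and RVE2 were higher, and ST2A, a sulfotransferase, and AT3G21330 were lower. RVE1 had 23.6, 25.9 and 24.6 CPM in darkness, 71.4, 75.5 and 53.7 CPM after 1 h R and 29.3, 26.1 and 31 CPM after 24 h R. ST2A had 193, 195 and 179 CPM in darkness, 36.4, 46.6 and 32.0 CPM after 1 h R and 60.3, 76.5 and 58.1 CPM after 24 h R, so it stayed low. By the test of 24 h R against 1 h R STO, HY5 and both ELIP genes were lower at 24 h than at 1 h.

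**Figure D2:**
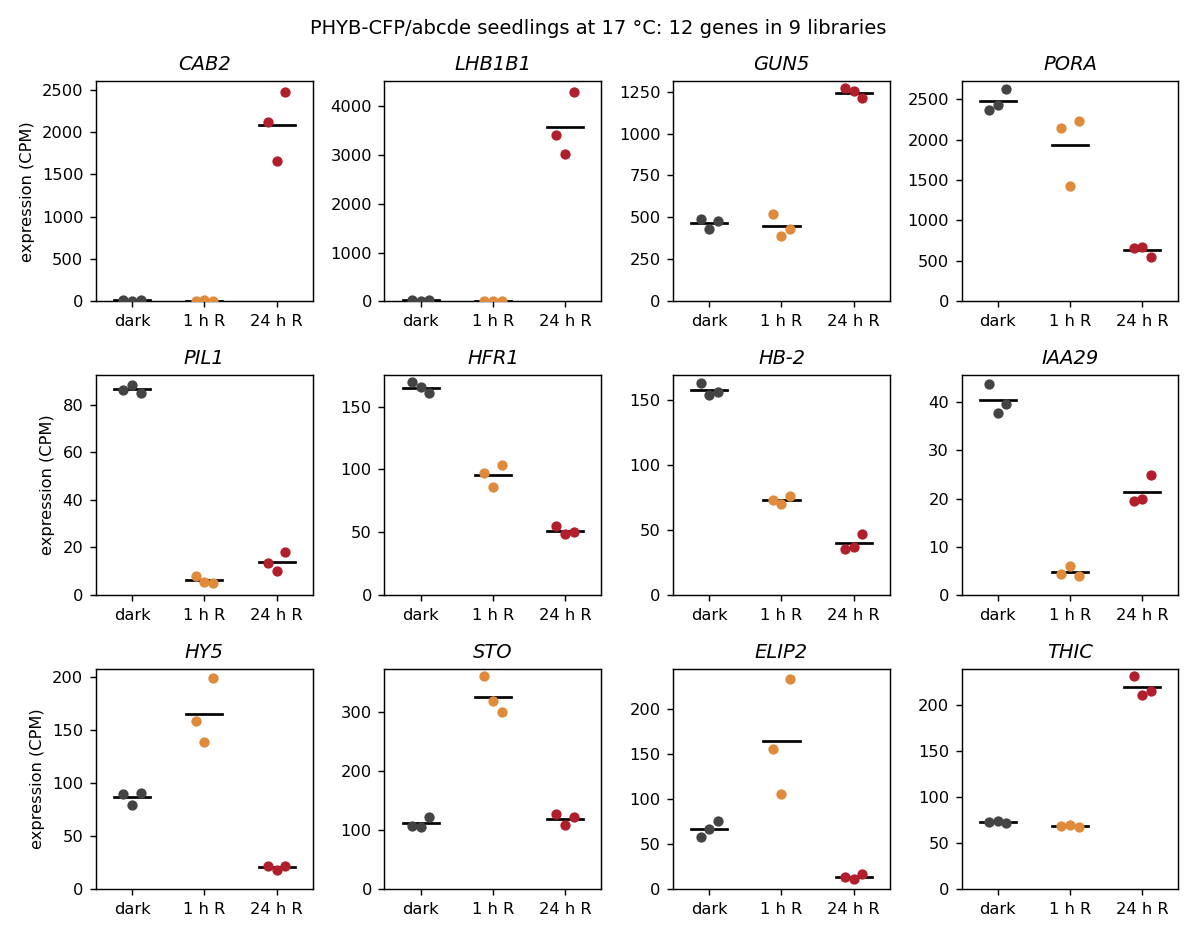
Expression in CPM of 12 genes in the 9 libraries of PHYB-CFP/abcde at 17 °C in darkness, after 1 h R and after 24 h R. Points are libraries, bars are group means, and each axis starts at 0. CAB2, LHB1B1, GUN5 and THIC are high only at 24 h, PIL1 and IAA29 are lowest at 1 h, and HY5, STO and ELIP2 are highest at 1 h.

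The line aBcde also has phyB as sole functional phytochrome, from the native gene. Its 24 h response at 17 °C comprised 3802 DEGs, 2478 higher and 1324 lower among the 20695 tested genes. Of the genes higher in PHYB-CFP/abcde 963 were also higher in aBcde, 83.2% of the PHYB-CFP/abcde list and 38.9% of the aBcde list. Of those lower, 393 were also lower in aBcde, 59.5% of the PHYB-CFP/abcde list and 29.7% of the aBcde list, and 8 genes were lower in PHYB-CFP/abcde and higher in aBcde. Across the 20695 genes the log2 fold changes of the lines had r = 0.62 and rho = 0.67, as a description, since genes are not independent. Among the genes called in aBcde, the change in PHYB-CFP/abcde was a median 0.54 of that in aBcde on the log2 scale, and among the genes called in PHYB-CFP/abcde it was 0.83, each set having been chosen for its change in that line. The difference between the responses was significant for 499 genes, 230 with a more positive (1.11%) and 269 with a more negative (1.30%) change in PHYB-CFP/abcde. The balance turned with the settings, with 512 more positive and 445 more negative without the fold threshold, 311 and 275 with limma on quantile-normalized values, and 303 and 490 when only these 12 libraries were fitted. Without the 5 libraries that stood apart in PHYD, 238 genes had a difference, 130 more positive and 108 more negative, and 224 of them were among the 499. Without dark replicate 1 of aBcde alone there were 404. No antenna gene was among the 499, although the summed antenna transcripts were 39430.1 to 52737 CPM after 24 h R in PHYB-CFP/abcde and 50170 to 76464 CPM in aBcde.

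**Figure D3:**
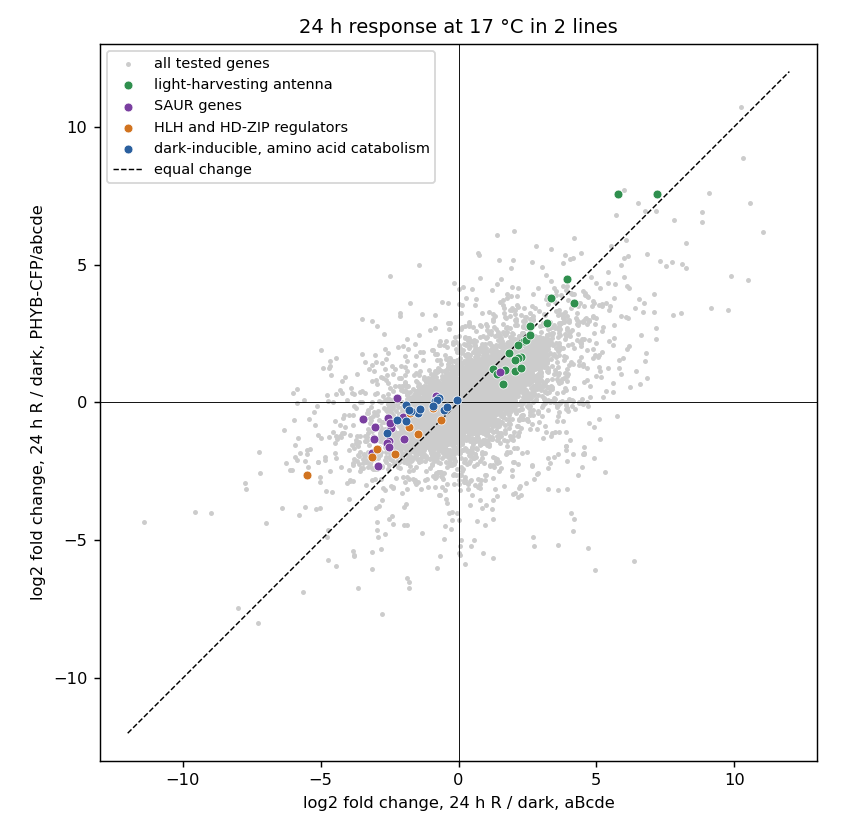
Log2 fold change of each tested gene after 24 h R against darkness at 17 °C, in PHYB-CFP/abcde (vertical) and in aBcde (horizontal). Grey points are the 20695 tested genes, colored points are 4 gene lists, and the dashed line marks equal change. Antenna genes lie near the dashed line, while most SAUR, HLH and HD-ZIP and dark-inducible genes lie above it.

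Genes with a more positive change in PHYB-CFP/abcde than in aBcde included regulators of the shade response. Beside the counts that follow, 1.11% of all tested genes had a more positive and 1.30% a more negative change. PIL1 fell by 2.63 on the log2 scale in PHYB-CFP/abcde and by 5.50 in aBcde, a difference of 2.87, and it had 13.6, 10.2 and 18.1 CPM in PHYB-CFP/abcde after 24 h R, against 1.85, 2.93 and 1.63 CPM in aBcde. The dark levels were close, 85.0 to 88.3 CPM in PHYB-CFP/abcde and 90 to 107 CPM in aBcde. HFR1 (difference 1.27), HB-2 (1.18) and HAT2 (1.37) were the other HLH and HD-ZIP genes with a difference, 4 of 9 in all. XTH15 had 418 to 492 CPM in PHYB-CFP/abcde after 24 h R and 33.5 to 56.3 CPM in aBcde, with a difference between the responses of 3.13. Of the 17 SAUR genes 5 differed, all with a more positive change in PHYB-CFP/abcde, and so did 8 of 15 dark-inducible genes. Without the 5 libraries that stood apart in PHYD these counts were 3 of 9 for the HLH and HD-ZIP genes, 1 of 17 for the SAUR genes and 7 of 15 for the dark-inducible genes. In that fit 130 of all 20695 tested genes had a more positive and 108 a more negative change. DIN2 had 467, 506 and 510 CPM in PHYB-CFP/abcde after 24 h R, against 221, 203 and 120 CPM in aBcde (difference 1.51). PHYA fell by 2.52 in aBcde and had 199, 112 and 107 CPM there, so that its response differed by 1.55. PIF4 was raised in PHYB-CFP/abcde and not in aBcde, where it had 30.6, 12.8 and 11.3 CPM after 24 h R, against 21.9, 21.6 and 23.3 CPM in darkness, and the difference of 1.80 was significant. PORA differed by 3.97, with a smaller fall in PHYB-CFP/abcde. Calvin cycle genes differed in the other sense for 4 of 20 (2 without those 5 libraries), RCA (−1.29) and CP12-2 (−2.23) among them, and so did THIC (−1.25) and THI1 (−1.44), which rose less in PHYB-CFP/abcde.

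The same line was also measured at 27 °C. There 24 h R gave 2565 DEGs, 1962 higher and 603 lower. The response at 17 °C differed from that at 27 °C for 1052 genes, 227 with a more positive (1.10%) and 825 with a more negative (3.99%) change at 17 °C. The split was 21.6% more positive, or 33.4% when quantile-normalized values were used. Genes with a more negative change at 17 °C included 17 of 21 antenna genes, 21 of 25 photosystem genes, 14 of 20 Calvin cycle genes and 14 of 24 chlorophyll genes, of which 17, 15, 9 and 7, in this order, were higher after 24 h R at 17 °C. Without the 5 libraries that stood apart in PHYD, 657 genes had a difference, 147 more positive and 510 more negative, with 15 antenna, 16 photosystem, 12 Calvin cycle and 11 chlorophyll genes among the more negative ones. This came with a difference in the dark level. Summed antenna transcripts were 8250 to 9686 CPM in darkness at 17 °C and 2132 to 2466 CPM in darkness at 27 °C, which do not overlap, while after 24 h R they were 39430.1 to 52737 CPM at 17 °C and 50033 to 64556 CPM at 27 °C, which do. CAB1 had 2315 to 2873 CPM in darkness at 17 °C and 56.0 to 75.1 CPM in darkness at 27 °C, and 8792 to 13124 CPM after 24 h R at 17 °C and 8723 to 11236 CPM at 27 °C, so that its response differed by −5.25. Chlorophyll synthesis genes summed to 8363 to 9034 CPM after 24 h R at 17 °C, against 9166 to 9726 CPM in darkness at 17 °C and 1740 to 2018 CPM in darkness at 27 °C.

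Genes with a more positive change at 17 °C included PIL1 (2.69), IAA29 (2.28) and HB-2 (1.19), which fell less at 17 °C. PIL1 had 10.2 to 18.1 CPM after 24 h R at 17 °C and 0.829 to 3.38 CPM after 24 h R at 27 °C. COR413IM1, a cold-regulated protein of the chloroplast envelope, went in opposite directions: it had 94.7, 75.6 and 91.9 CPM after 24 h R at 17 °C, against 22, 17.6 and 19.9 CPM in darkness, and 13.5, 11.5 and 14.1 CPM after 24 h R at 27 °C, against 39.5, 34.7 and 36.3 CPM in darkness (difference 3.64). PHYB, with 310 to 337 CPM after 24 h R and 452 to 466 CPM in darkness at 17 °C, had 410 to 508 CPM after 24 h R and 1322 to 1423 CPM in darkness at 27 °C, and its response differed by 1.08. Transcripts of the photoreceptor itself were thus at different levels at the 2 temperatures, and their part in the other differences was not tested.

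**Figure D4:**
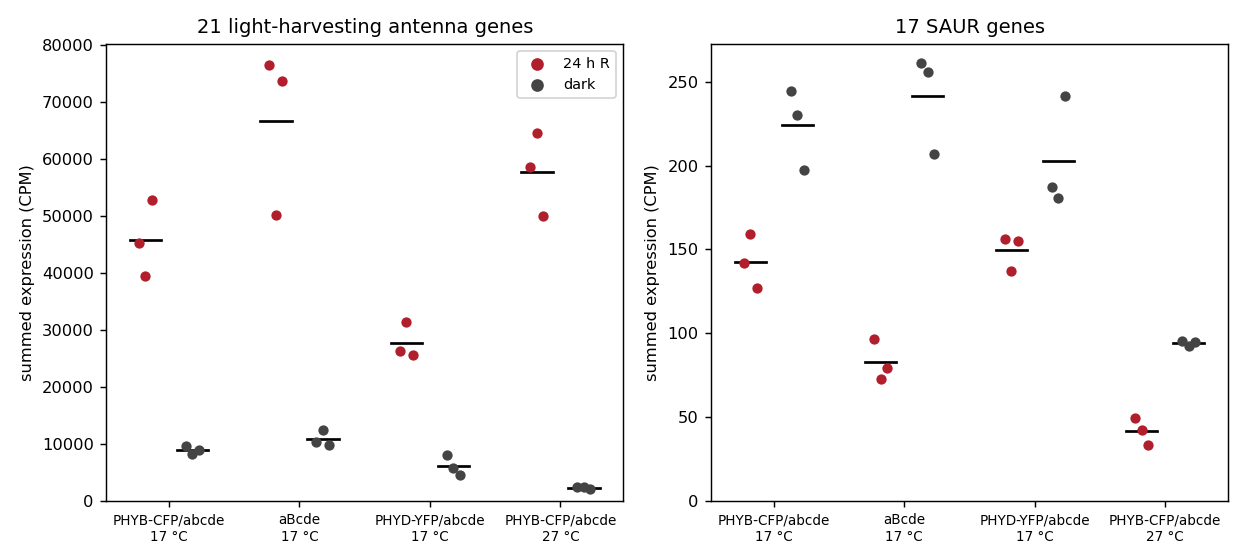
Summed expression in CPM of 21 antenna genes (left) and 17 SAUR genes (right) after 24 h R and in darkness, in 4 sets of line and temperature. Points are libraries, bars are means of 3, and both axes start at 0. Antenna sums at 17 °C in PHYB-CFP/abcde are 39430.1 to 52737 CPM after 24 h R and 8250 to 9686 CPM in darkness, and the dark sums are lowest at 27 °C.

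In PHYD-YFP/abcde, where PHYD-YFP is the sole functional phytochrome, 24 h R at 17 °C gave 765 DEGs, 603 higher and 162 lower among 20695 genes. There 19 of 21 antenna, 17 of 25 photosystem and 4 of 20 Calvin cycle genes were higher. Of 17 SAUR genes 1 was lower, and of 9 HLH and HD-ZIP genes 3 were lower. In PHYB-CFP/abcde these counts were 20, 18, 10, 7 and 5, in this order. The response of PHYD-YFP/abcde differed from that of PHYB-CFP/abcde for 120 genes. Of these, 24 had a more positive (0.116%) and 96 a more negative (0.464%) change in PHYB-CFP/abcde. No antenna, photosystem, Calvin cycle, SAUR or HLH and HD-ZIP gene was among them, although the summed antenna transcripts after 24 h R were 39430.1 to 52737 CPM in PHYB-CFP/abcde and 25529 to 31386 CPM in PHYD-YFP/abcde, and the dark sums were also unequal, 8250 to 9686 CPM in PHYB-CFP/abcde and 4446 to 8012 CPM in PHYD-YFP/abcde. Of the 96 genes, 9 were seed reserve genes. CRU3 had 18.7, 46.9 and 10 CPM after 24 h R in PHYB-CFP/abcde, against 141, 189 and 227 CPM in the irradiated PHYD-YFP/abcde libraries, and in darkness it had 188, 172 and 172 CPM in PHYB-CFP/abcde, against 3.81, 96.2 and 5.97 CPM in PHYD-YFP/abcde. The dark libraries of PHYD-YFP/abcde thus varied widely among themselves, with replicate 2 far above the others. BT1, a scaffold protein with BTB and TAZ domains, had 192, 150 and 202 CPM after 24 h R and 83.0, 72.9 and 88.7 CPM in darkness in PHYB-CFP/abcde, while in PHYD-YFP/abcde it had 42.5, 47.7 and 41.6 CPM after 24 h R and 42.6, 48.2 and 38.3 CPM in darkness (difference 1.12). CYP96A5 (−2.94), IAA19 (−1.77), BBX28 (−1.28) and ELIP1 (−2.49) had more negative changes in PHYB-CFP/abcde. The count of 120 fell to 47 without 24 h R replicate 3 of PHYB-CFP/abcde, to 67 without replicate 1, and to 74 and 76 without dark replicates 1 and 2. It was 72 without the libraries that stood apart in PHYD. No library of PHYD-YFP/abcde was left out in these counts.

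Published target lists were also counted, beside 5.60% higher and 3.19% lower among all tested genes. Of 323 PIF direct targets tested, 36 were higher and 68 were lower after 24 h R (median −0.27), and of the 77 among them that are listed as light-responsive, 15 were higher and 25 were lower (median −0.70). The phyB-phyD joint targets, which combine the genes bound by phyD-YFP or by phyB-GFP in chromatin immunoprecipitation, are a list made within the same work, so it is not independent evidence. Of its 81 genes tested, 18 were lower and none was higher (median −0.47). PIL1, HFR1, HB-2 and IAA29 have been described above.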

How the data were processed

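Libraries of poly(A) RNA were made from whole seedlings in 30 groups of 3 (90 libraries). Per the paper's methods and the labels, the authors trimmed the reads (FastQC, Trimmomatic), aligned them to TAIR10 with STAR and counted them per gene with htseq-count, so the deposited values are raw read counts. Strand setting and treatment of multiply mapped reads are not given in the sources used here, so overlapping genes and close copies are less certain, and reads of Landsberg erecta were aligned to Col-0. Of 28775 genes listed, 28009 had a row in the RefSeq TAIR10.1 table, which gave symbols and promoter sequences. Organelle genes (279) and genes for tRNA or rRNA (627) were excluded. A gene was tested if 25% of libraries (23) or more had 5 or more counts, which left 20695.

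Counts were fitted with edgeR 4.0.16 in R 4.3.3 (TMM, quasi-likelihood test, 30 group means, 60 residual degrees of freedom, Benjamini-Hochberg adjustment over all genes tested). DEGs changed 2-fold or more with an adjusted p below 0.05. Differences between responses were contrasts of the same model, and SE is the log2 fold change divided by the root of F. The comparisons of 24 h R and 1 h R with darkness and with each other share libraries. DESeq2 1.42.0, limma 3.58.1 on quantile-normalized log2 CPM, other filters, other library sets and left-out libraries were alternatives. The model was tested on simulated data.

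Genes were named by rule: phytochromes and the 5 each way with the smallest p and the largest change (non-overlapping, mean of at least 5 CPM). The rule also took up to 5 called members of a list each way, and members needed to account for lists of 10 or fewer. In other comparisons up to 4 each way were named. CAB3, LHCA4, LHCB3, LHCB4.1, LHCB4.3, HEMA1, PORB, CRU3, SAUR19, SAUR22 and AT5G18030 were named after their values were seen. The group of seedlings and the lists were chosen with earlier results of these data known. Counting intervals cover counting error only.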

Additional observations from a re-analysis of the deposited data

Results flagged for a closer look

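The 24 h response of PHYB-CFP/abcde at 17 °C differed from other responses in tests of the difference itself: for 499 genes from aBcde at 17 °C, for 1052 genes from the same line at 27 °C and for 120 genes from PHYD-YFP/abcde at 17 °C. The following values are differences of log2 fold changes for the genes with the smallest p each way, PHYB-CFP/abcde at 17 °C minus the other group.

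Against aBcde, the response was more positive for AT3G54510 (2.94), AT5G02580 (2.34), FAR1 (2.09, a fatty acid reductase) and ORP4C (2.15). It was more negative for ORG1 (−1.83), ATSPS4F (−3.70), THIC (−1.25) and ACL (−1.82). ATSPS4F, a sucrose phosphate synthase, had 89.6, 76.3 and 95.5 CPM after 24 h R and 92.2, 86.2 and 100 CPM in darkness in PHYB-CFP/abcde, while in aBcde it had 71.7, 129 and 110 CPM after 24 h R and 9.31, 5.89 and 10.2 CPM in darkness, so the lines differed in the dark level. ORP4C had 117, 107 and 128 CPM after 24 h R and 140, 112 and 156 CPM in darkness in PHYB-CFP/abcde, while in aBcde it had 5.59, 4.54 and 4.42 CPM after 24 h R and 25.1, 21.9 and 27.8 CPM in darkness.

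Against 27 °C, the response was more positive for COR413IM1 (3.64), IAA29 (2.28), PIL1 (2.69) and AT5G02580 (1.82), and more negative for AT1G64500 (−4.13), AT2G42220 (−4.12), CAB1 (−5.25) and ADC2 (−2.37), an arginine decarboxylase. Against PHYD-YFP/abcde, it was more positive for OXS3 (1.2), AT4G17250 (2.00), AT3G09500 (1.03) and BT1 (1.12), and more negative for CYP96A5 (−2.94), AT4G21020 (−8.38), LEA (−7.94) and AT3G15670 (−5.43). Chloroplast-encoded genes, which no comparison used, took a mean of 1.4% of counts after 24 h R (SD 0.374, n = 3) and 0.890% in darkness (SD 0.0778, n = 3). All irradiated libraries were above all dark ones, but other groups did not share this. At 27 °C the same line had less after 24 h R (1.04% to 1.16%) than in darkness (1.27% to 2.12%). In aBcde at 17 °C both groups overlapped (0.274% to 0.634% after 24 h R, 0.0992% to 0.320% in darkness), as they did in PHYD-YFP/abcde at 17 °C. The 1 h R libraries of PHYB-CFP/abcde at 17 °C had 0.235% to 1.07%. Poly(A) libraries capture such transcripts incompletely, and 3 against 3 libraries cannot give a two-sided exact permutation p below 0.1.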

How the results depend on the processing

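No named gene reversed its direction under the alternatives it was computed for, but the balance of higher and lower genes turned in some counts. Without a fold threshold the counts were 5324 (24 h R against darkness), 154 (1 h R against darkness), 5151 (24 h R against 1 h R), 957 (minus aBcde), 1830 (17 °C minus 27 °C) and 194 (minus PHYD-YFP/abcde). The higher and lower genes among these were 2660 and 2664 for 24 h R against darkness, 2455 and 2696 for 24 h R against 1 h R, and 512 and 445 minus aBcde. Without the 5 libraries that stood apart in PHYD, chosen after seeing the data, the counts were 1603, 58, 1818, 238, 657 and 72 in the same order of comparisons. With glmTreat, which tests against a 2-fold change, the totals were 363, 17, 348, 28, 129 and 15 in the same order, and 53 list members were called, against 143. Fitting only the groups compared gave 793 genes minus aBcde and 264 minus PHYD-YFP/abcde. Leaving out each PHYB-CFP/abcde library at 17 °C in turn gave 1587 to 1829, 63 to 101, 1579 to 1846, 351 to 517, 863 to 1089 and 47 to 127 genes, and 132 to 153 list members. Of the other groups, only replicate 1 of aBcde in darkness (404 genes) and of PHYB-CFP/abcde at 27 °C in darkness (936) and after 24 h R (972) was left out singly. No PHYD-YFP/abcde library and no 24 h R library of aBcde was left out, so the ranges do not cover their spread. DESeq2 gave 1959, 90, 1898, 627, 1198 and 176. The replicate block gave 1762, 70, 1688, 475, 990 and 102 genes and 141 list members. Deviations of same-numbered irradiated and dark libraries had correlations of 0.0229, 0.101 and 0.0161, and those of differently numbered ones −0.0801 to 0.0586. These values do not settle whether the numbers pair the libraries, and the main fit used no pairing. Of 3159 values for 168 named results, 3023 kept their side of the threshold and 134 lost it, 64 of them with glmTreat, and PHYA and PHYB passed without a fold threshold. Genes at a few counts per library are limited by depth.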
